A study of Caenorhabditis elegans with 2 samples.

Results

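The lin genes of Caenorhabditis elegans were named for mutants in which cell lineages went wrong, and here they are described by the regions that the homeodomain protein CEH-48 occupied at their promoters. The members are the 42 protein-coding genes named lin followed by a number alone in the Ensembl release 115 annotation, with lin-11, lin-32 and lin-39 left out, of 19973 protein-coding genes on the nuclear chromosomes. The genes were chosen by name, but the group was proposed with the signal values of these region lists in view, so every count and signal below is a description without a test. The study is chromatin immunoprecipitation with sequencing (ChIP-seq) on 1 group of 2 biological replicates, whole late embryos of mixed sex of strain OP631, collected 3.5 hours after synchronization by egg bleaching. Both replicates carry the unc-119(tm4063) III allele and the transgene wgIs631, which makes CEH-48 with a GFP and FLAG tag at its C-terminal end. Per the labels, the precipitation used an antibody against GFP in the description and ceh-48 in the antibody tag. Whole embryos were used, so the cells in which a region was occupied are not resolved, and no untagged strain is analysed here.

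The members fall into families with different work in development. Proteins of the DREAM complex, which pairs the retinoblastoma-like protein LIN-35 with the E2F factor EFL-1, its partner DPL-1 and a core of LIN proteins, repress cell cycle and germline genes, and most were found in screens for synthetic multivulva mutants together with other chromatin proteins. The signalling members belong to the EGF and Ras, Notch and Wnt pathways that pattern the vulva and many other tissues, and the heterochronic members set the time at which cells adopt stage-specific fates. CEH-48 belongs to the ONECUT family, which binds the core sequence ATCGAT in vitro, and is known from the nervous system.

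The list of the authors' reproducible regions, named IDR regions after the irreproducible discovery rate used to set the threshold, held 1840 regions, which are also the 1840 of highest signal in the list of both replicates pooled. The pooled list held 30000 regions, of which most lie below the threshold and mix weak regions with background. Replicate 1 alone gave 28372 regions and replicate 2 alone gave 30000. Signal is the peak caller's deposited value per region, its scale is not stated, and it is compared only within a list. Read numbers are not in the lists, so the depth is unknown. The promoter window of a gene covered 1000 bp before its 5′ end and 200 bp after it, and a region was counted there by its summit.

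Of the 42 lin genes, 12 had an IDR summit in the window (28.6%), against 6.29% of all protein-coding genes. The 12 were lin-7, lin-9, lin-10, lin-13, lin-23, lin-35, lin-36, lin-38, lin-53, lin-54, lin-59 and lin-66. By role, 8 of the 16 chromatin and DREAM genes had one, as did 2 of the 12 signalling genes, 1 of the 7 heterochronic genes and 1 of the 7 other members. Each of these 12 genes had a single IDR summit in its window, and the 12 summits lay between protein-coding genes, upstream of the 5′ end. The window itself reaches 1000 bp upstream and only 200 bp downstream, and these placements were not counted over all promoter IDR summits. The signals of the 12 summits ran from 105 to 483 with a median of 161. Over the 943 IDR summits that lay in any promoter window, signals ran from 85.2 to 1044.5 with a median of 141.

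Short stretches around 6 of these summits show how differently their sequence was composed. All are read from the WBcel235 (ce11) genome, 5′ to 3′ on the gene's own strand, and cover the 100 bp centred on the summit, or 61 bp for lin-54 where annotated untranslated bases were left out. Capitals mark ATCGAT. The first 2, at lin-36 and lin-38, hold a copy. The other 4 hold none, among them lin-66 and lin-13, whose IDR signals of 354 and 205 exceed the 197 of lin-38. Neither lin-9 nor lin-54, the DREAM genes shown, holds a copy. Of the DREAM genes with IDR summits that are not shown, lin-35 holds 1 in the 100 bp, and lin-53, dpl-1 and efl-1 hold none.
lin-36 (chrIII:8021018-8021117, minus strand): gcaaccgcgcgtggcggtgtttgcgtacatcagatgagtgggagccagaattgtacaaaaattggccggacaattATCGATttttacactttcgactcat
lin-38 (chrII:13575674-13575773, plus strand): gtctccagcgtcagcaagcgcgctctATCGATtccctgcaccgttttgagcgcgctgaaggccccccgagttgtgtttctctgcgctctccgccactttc
lin-66 (chrIV:13887422-13887521, plus strand): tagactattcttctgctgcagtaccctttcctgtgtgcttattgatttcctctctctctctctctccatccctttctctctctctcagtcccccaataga
lin-13 (chrIII:7710246-7710345, minus strand): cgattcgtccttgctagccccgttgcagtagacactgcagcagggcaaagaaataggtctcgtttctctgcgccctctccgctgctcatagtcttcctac
lin-9 (chrIII:8904144-8904243, minus strand): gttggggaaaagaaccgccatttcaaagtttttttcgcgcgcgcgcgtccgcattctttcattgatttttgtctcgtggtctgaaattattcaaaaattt
lin-54 (chrIV:13240652-13240712, plus strand): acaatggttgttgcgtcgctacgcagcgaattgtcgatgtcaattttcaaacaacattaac

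The lin-36 and lin-38 stretches each hold 1 copy of ATCGAT, with its centre 28 and 21 bp from the summit. The lin-66 stretch holds none and instead has an unbroken run of 22 bases made of C and T only. The lin-9 stretch holds 3 overlapping copies of GCGCGC and the lin-38 stretch 2, and GC content of the 6 stretches ran from 41% at lin-9 and lin-54 to 61% at lin-38. The lin-13 stretch is 55% GC, and its nearest ATCGAT is centred 49 bp from the summit and so only partly inside the 100 bp.

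The region of highest signal at a lin gene lay at lin-36, which encodes a protein with a THAP domain of the synthetic multivulva B class. It ran on chromosome III from 8020934 to 8021238, with its summit 195 bp upstream of the 5′ end. Its signal was 156 in replicate 1 and 323 in replicate 2, and 483 in the IDR list, where it ranked 45th of 1840 and above 97.5% of the promoter summits. It ranked 32nd in replicate 1 and 67th in replicate 2. Both replicates therefore placed lin-36 near the top of their lists, with summits 0 and 11 bp from the IDR summit.

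The next was at lin-66, the only heterochronic gene of the 7 with an IDR summit in its window. LIN-66 is known to lower the level of the RNA-binding protein LIN-28. The lin-66 region ran on chromosome IV from 13887353 to 13887614, with its summit 607 bp upstream. Its signal was 102 in replicate 1, 254 in replicate 2 and 354 in the IDR list, at ranks 126, 160 and 148. No other protein-coding gene had this summit in its window, and the gene on its other side, thoc-7, turned its 3′ end towards it from 3295 bp away.

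**Figure D1:**
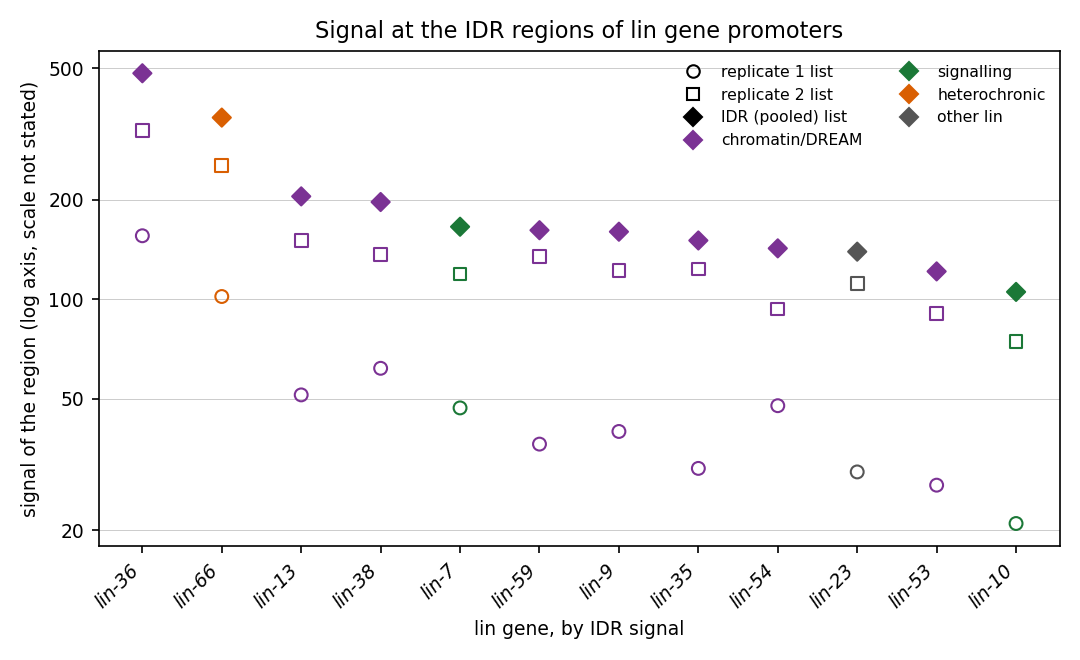
Signal (log axis, the peak caller's value per region, scale not stated) at the IDR region of each of the 12 lin genes, with circles for the replicate 1 list, squares for the replicate 2 list and diamonds for the IDR list, coloured by class. Signals at lin-36 and lin-66 stand above those of the other 10 genes in each list, and replicate 2 lies above replicate 1 at each gene.

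Each of the 12 IDR summits was matched to within 100 bp by 1 summit per replicate, as were 95.8% of all promoter IDR summits. Replicate 2 signal was 1.96 to 4.01 times replicate 1 signal with a median of 3.0, against a median of 2.78 over all promoter IDR summits found in both lists. The lists were scaled separately, so this ratio describes the lists and not the amount of CEH-48. Among the 1840 regions of highest signal in its own list, replicate 2 held all 12 regions, at ranks 67 to 1432, while replicate 1 held 10. The 2 that were lower in replicate 1 were lin-53, at rank 1893, and lin-10, at rank 3552. With these top regions in place of the IDR list, 12 lin genes had a summit in replicate 2 (6.33% of all genes) and 10 in replicate 1 (5.71% of all genes).

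The DREAM complex had IDR summits at 6 of its 8 genes. Its subunits were listed together after the values were seen, as LIN-35, LIN-9, LIN-37, LIN-52, LIN-53 and LIN-54 with EFL-1 and DPL-1. A summit of the pooled list lay in the windows of all 8. The IDR summits of lin-35, lin-53 and lin-54 lay nearer to the 5′ ends of vps-51, nra-2 and rpl-12. Given only to the gene with the nearest 5′ end, they would not count for these DREAM genes. The shares over all genes were 6.29% for IDR summits and 35.7% for pooled ones, and nothing is read from the difference, since the values were known when the genes were grouped. Counted by each replicate's own top 1840 regions, 4 of the 8 had one in replicate 1 (5.71% of all genes) and 6 in replicate 2 (6.33% of all genes).

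Among the DREAM genes, the signals lay in the middle and lower part of the range. At lin-9, which encodes a core subunit, the signal was 39.8 in replicate 1, 122 in replicate 2 and 160 in the IDR list, on chromosome III from 8904009 to 8904378, with the summit 63 bp upstream of the 5′ end. At lin-54, the DNA-binding subunit, it was 47.6, 93.4 and 143 in the same order, on chromosome IV from 13240478 to 13240847, with the summit 381 bp upstream. At dpl-1 it was 39.7, 100.2 and 141, with the summit 178 bp upstream. These values were close to the median of promoter summits, 141. At efl-1 the IDR signal was 91.4, at rank 1675, and replicate 2 had 71.0 while replicate 1 had no summit within 100 bp.

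The other DREAM genes with IDR summits lie on chromosome I. At lin-35, the retinoblastoma-like gene, signal was 30.8 in replicate 1 and 123 in replicate 2, and 151 in the IDR list, from 5807299 to 5807668. Its rank was 1526 in replicate 1 and 722 in replicate 2, so it stood higher in the second list. At lin-53, which encodes a histone-binding protein of the RbAp46/48 family shared by several chromatin complexes, the values were 27.4 in replicate 1 and 90.6 in replicate 2, and 121 in the IDR list, from 9619818 to 9620187. The summits lay 225 bp upstream of lin-35 and 243 bp upstream of lin-53.

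The remaining subunits, lin-37 and lin-52, had no IDR summit in the window. For lin-37 an IDR summit of signal 86.4, at rank 1802 near the foot of the list, lay 1578 bp upstream and outside the window, with signals of 24.0 in replicate 1 and 45.4 in replicate 2. Inside the lin-37 window the pooled list had a summit of signal 26.0 at rank 19803, with no partner within 100 bp in either replicate. The lin-52 window held a pooled summit of signal 21.6 at rank 27112. Both values are below the pooled median of 29.9.

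Other chromatin members had regions of similar or higher signal. At lin-13, a zinc finger gene of the synthetic multivulva B class, signal was 51.3 in replicate 1 and 150.4 in replicate 2, and 205 in the IDR list, on chromosome III from 7710211 to 7710302, with the summit 805 bp upstream. At lin-38, a zinc finger gene of the synthetic multivulva A class, it was 61.8 in replicate 1 and 137 in replicate 2, and 197 in the IDR list, on chromosome II from 13575633 to 13575809, with the summit 201 bp upstream. At lin-59, which encodes a SET domain protein related to fly ASH1, it was 36.4 in replicate 1 and 135 in replicate 2, and 162 in the IDR list, on chromosome I from 3721441 to 3721810, with the summit 469 bp upstream. Their order by rank was not the same in both replicates, since lin-38 led lin-13 in replicate 1 at rank 482 against 647, and lin-13 led in replicate 2 at rank 536 against 625.

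In the signalling class, the 2 genes with IDR summits encode partners in 1 protein complex. LIN-7 and LIN-10 are PDZ domain proteins that, with LIN-2, place the EGF receptor LET-23 in the basolateral membrane of vulval precursor cells, and their mammalian relatives act at synapses. At lin-7, signal was 46.9 in replicate 1 and 119 in replicate 2, and 166 in the IDR list, on chromosome II from 14349518 to 14349887. The lin-7 summit lay 297 bp upstream of lin-7 but 35 bp upstream of elof-1, and also in the window of Y54G11A.17. At lin-10, signal was 20.9 in replicate 1 and 74.7 in replicate 2, and 105 in the IDR list. That region ran on chromosome I from 8119169 to 8119538, with its summit 38 bp upstream of the 5′ end. The third gene, lin-2, had no IDR or pooled summit in its window and only a replicate 1 region of signal 11.2. Since lin-10 was not among the top regions of replicate 1, that replicate alone gave 1 of the 12 signalling genes (5.71% of all genes).

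The ligands, receptors, kinase and transcription factors of the signalling class had no IDR summit in the window. They were lin-3 (the EGF ligand), lin-12 (a Notch receptor), lin-17 (a Frizzled receptor), lin-18 (a Ryk receptor), lin-44 (a Wnt ligand), lin-45 (Raf), lin-1 (an ETS factor), lin-31 (a forkhead factor) and the Mediator subunit gene lin-25, and lin-2 likewise had none. Among the other members, lin-23, which encodes an F-box protein of a ubiquitin ligase, had an IDR region on chromosome II from 6370188 to 6370557. Its signal was 30.0 in replicate 1 and 112 in replicate 2, and 139 in the IDR list. Its summit, 930 bp upstream, was the member nearest to the window's edge.

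In the pooled values, the signal threshold separated the members widely. The member just above it was lin-10, with signal 105 at rank 1406, and the member just below was lin-8, a synthetic multivulva A gene, with a pooled signal of 77.0 at rank 2133. Replicate 1 did not keep this order, since lin-8 ranked 1880 there, above lin-53 at 1893 and lin-10 at 3552. The best replicate 1 summits of lin-17 (rank 2528) and lin-40 (rank 2747) also stood above that of lin-10. Replicate 2 kept the gap, with lin-10 at rank 1432 and the highest member below the threshold, lin-46, at rank 2527. By position, the last IDR summit inside a window was that of lin-23 at 930 bp, and the next outside was that of lin-37 at 1578 bp. Only lin-37 and lin-46 of the 30 genes without an IDR summit in the window had one within 2000 bp of the 5′ end. For the 30 genes the nearest IDR summit lay 1578 to 67043 bp away, with a median of 21668 bp. None of the 42 genes had an IDR summit inside the annotated gene. These distances and counts were not taken over all genes, so nothing particular to the lin genes is read from them.

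**Figure D2:**
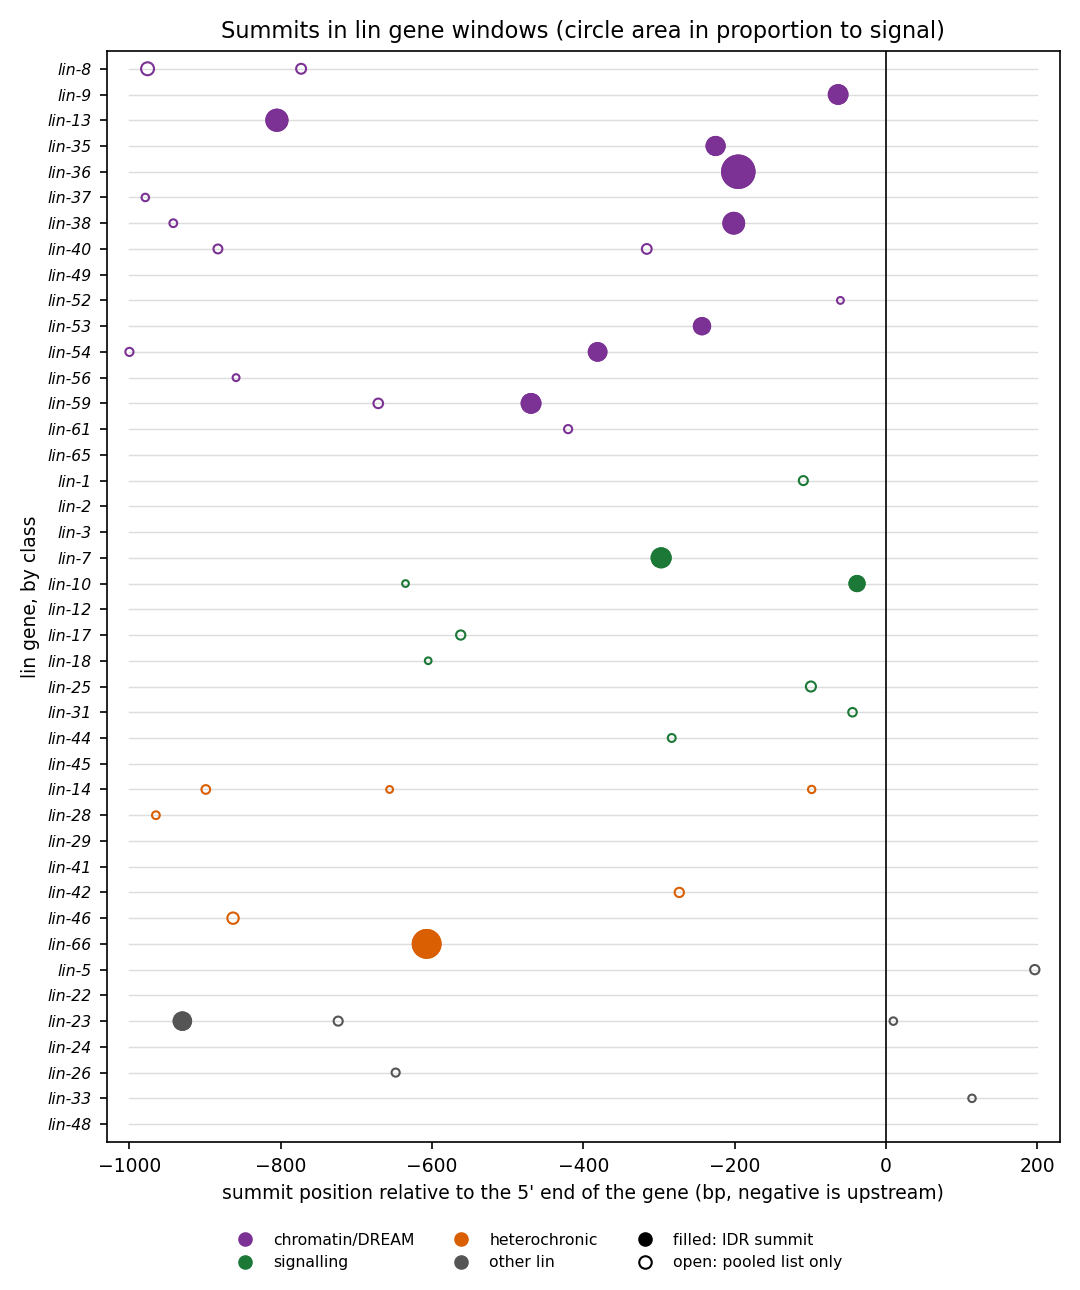
Position of each summit in the windows of the 42 lin genes (bp from the 5′ end, negative upstream), with filled circles for IDR summits, open circles for summits of the pooled list only, and circle area in proportion to signal. The 12 filled circles are all upstream, 8 of them in the chromatin and DREAM class, and 11 genes have an empty line.

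Weaker regions were also frequent at the members. Any summit of the pooled list lay in the windows of 31 of the 42 lin genes (73.8%), against 35.7% of all genes. Of the 30 members without an IDR summit, 19 had a pooled summit (63.3%), against 31.4% of the genes without one in the whole annotation. The highest pooled signals of these 19 genes ran from 20.6 to 77.0 with a median of 33.7, against a median of 33.0 over all genes of this kind. By class, a pooled summit lay at 14 of 16 chromatin and DREAM genes, 8 of 12 signalling genes, 5 of 7 heterochronic genes and 4 of 7 other members. Any region of the replicate 1 list was found at 27 members (35.7% of all genes) and any region of the replicate 2 list at 30 (35.1% of all genes).

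The 10 members with the highest signals below the threshold were spread over the classes. The chromatin genes were lin-8 (signal 77.0) and lin-40 (44.2), which encodes a subunit of the NuRD complex. The heterochronic genes were lin-46 (59.9), lin-42 (39.5), a relative of Period, and lin-14 (34.8), a nuclear factor of early larval fates. The lin-46 summit, 863 bp upstream of that gene, lay only 10 bp upstream of R186.8 and also in the window of R186.3. The signalling genes were lin-25 (46.7), lin-17 (39.5), lin-1 (37.6) and lin-31 (33.7), and lin-5 (40.0), a spindle gene, completed the 10. For matching, the strongest region of each of the 19 genes below the threshold was taken. Of these 19 regions, 17 had a partner within 100 bp in replicate 2, 5 in replicate 1 and 4 in both. The same share was not counted over all weak promoter regions, so nothing particular to the lin genes is read from it. A gene without a partner could still have a replicate summit elsewhere in its window. For lin-8, the pooled summit lay 976 bp upstream and the replicate 1 summit, of signal 27.5 at rank 1880, 870 bp upstream.

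The other 9 genes with pooled summits alone, lin-18, lin-26, lin-28, lin-33, lin-37, lin-44, lin-52, lin-56 and lin-61, had signals of 20.6 to 30.6. A further 4 genes, lin-2, lin-22, lin-29 and lin-45, had a region in 1 replicate's list only. For the last 7, lin-3, lin-12, lin-24, lin-41, lin-48, lin-49 and lin-65, no list held a region in the window. Together with the 12 genes of the IDR list and the first 10 below it, these account for all 42 members.

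For 5 of the 12 IDR regions the summit also lay in the window of another protein-coding gene, a share near the 33.7% of all promoter IDR summits that lay in more than 1 window. These were lin-7 with elof-1 and Y54G11A.17, lin-35 with vps-51, lin-38 with mrpl-37, lin-53 with nra-2, and lin-54 with rpl-12, a ribosomal protein gene. The summit was nearer to the other gene's 5′ end for 4 of them. It lay 35 bp from elof-1 but 297 bp from lin-7, and 12 bp from rpl-12 but 381 bp from lin-54. At the pair of lin-35 and vps-51 the distances were 225 and 193 bp, and at lin-53 and nra-2 they were 243 and 224 bp. With each summit given only to the gene with the nearest 5′ end, at any distance and so without the window, 8 lin genes had one, 5 of them in the chromatin and DREAM class, against 8.03% of all genes. Region lists do not tell which gene of a shared start a region acts on.

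ATCGAT lay in the 100 bp around 3 of the 12 lin summits (25%), those of lin-35, lin-36 and lin-38, against 38.3% of all promoter IDR summits. With 200 bp around the summit the count was 4, lin-13 being added, against 44.2% of promoter summits. With ATTGAT on either strand also counted in the 100 bp it was 5, with lin-9 and lin-66 added, against 58.9%. Of the 12 summits, 2, at lin-10 and lin-59, had no copy within 5000 bp. For the other 10 the nearest copy was 21 to 2759 bp away. The median was 243.5 bp, against 160 bp for all promoter IDR summits. GCGCGC, searched because earlier results of these data named it, lay in 3 of the 12 stretches, at lin-9, lin-23 and lin-38, against 9.76% of promoter IDR summits. Both motifs read the same on either strand. No lin summit lay within 200 bp of a tRNA gene, the nearest being 14166 bp away. That share was not counted over all promoter IDR summits.

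Over the whole 1200 bp windows, ATCGAT occurred in 16 of the 42 lin genes (38.1%), near the 34.7% of all gene windows. By class it occurred in 10 of 16 chromatin and DREAM windows, 1 of 12 signalling windows (that of lin-17), 2 of 7 heterochronic windows and 3 of 7 others, and the difference between classes was not tested. Of the 12 genes with an IDR summit, 8 had a copy somewhere in the window but 3 had one at the summit. The share of windows with a copy was not counted over all genes with an IDR summit. The 8 are therefore not set against other genes.

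Partner genes of the same pathways that are not named lin were counted in the same way, against 6.29% of all genes with an IDR summit and 35.7% with a pooled one. Of 22 chromatin and DREAM partners, a list that also holds the kinase gene ark-1, 7 had an IDR summit (31.8%) and 18 a pooled one (81.8%), namely gei-4 with signal 466, mrg-1 with 142, dpl-1 with 141, epc-1 with 115, tam-1 with 110.0, mes-3 with 107 and efl-1 with 91.4 in the IDR list. Of 18 heterochronic partners, 5 had an IDR summit (27.8%) and 13 a pooled one (72.2%), led by ain-1, a GW182-like protein of the miRNA silencing complex (302), lep-2 (240.1) and the Argonaute gene alg-2 (193), followed by nhl-2 (104) and puf-9 (90.2). Of 46 signalling partners found in the annotation, 7 had an IDR summit (15.2%) and 26 a pooled one (56.5%).

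The signalling partners with IDR summits were sup-17, an ADAM protease that cleaves Notch (215), wrm-1 and sys-1, both beta-catenins (137 and 110), sel-12, a presenilin (117), the Dishevelled genes dsh-2 and mig-5 (107 and 105), and sel-10, an F-box protein that lowers Notch levels (90.2). Of the partner regions, those at epc-1, efl-1 and dsh-2 had no summit within 100 bp in replicate 1.

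**Figure D3:**
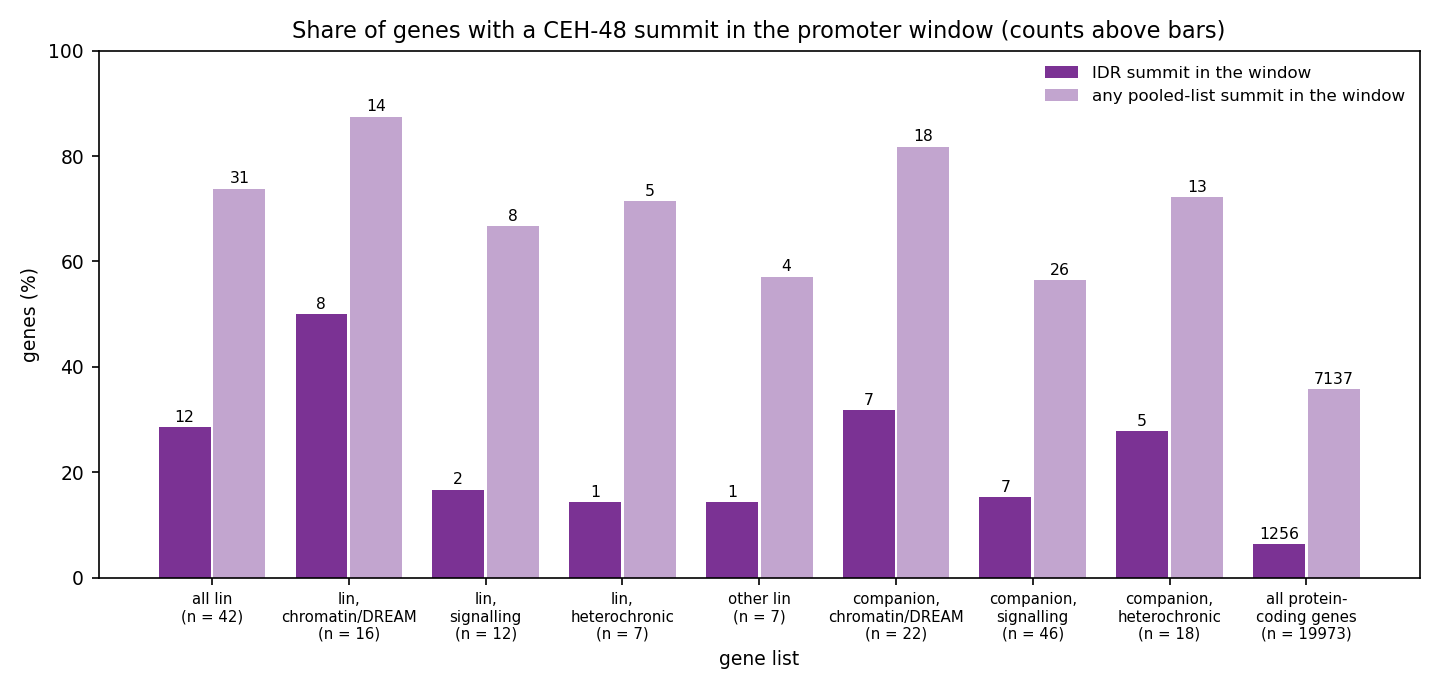
Share of genes (%) with an IDR summit (dark bars) or any pooled-list summit (light bars) in the promoter window, for the lin genes and their classes, the partner genes of the same pathways (labelled companion), and all protein-coding genes, with counts above the bars. The chromatin and DREAM lin genes reach 50% for IDR summits, the other lists 14.3 to 31.8%, and all genes 6.29%.

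The −log10 q-value of the peak caller was 3.35, the highest value in the IDR list, for 10 of the 12 regions. It was lower for lin-53 (2.88) and lin-10 (2.75), which also had the lowest IDR signals of the 12. The share of all IDR regions at the highest value was not counted, so nothing particular to the lin genes is read from this.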

How the data were processed

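The labels make the 2 libraries biological replicates of a single group, so no groups were compared. The deposited read-me files state that the authors made lists of peaks with background from ce11 alignments, for each replicate and for both pooled, as input to IDR, and a thresholded IDR list. The signal and the −log10 q-value of a region are the authors' deposited values. Copies on ce10 were left aside. Which aligner, peak caller and threshold were used is not given in the sources used here.

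Regions were placed on the Ensembl release 115 annotation and the RefSeq WBcel235 sequence, where 99.9% of annotated start codons read ATG and every region end lay inside its chromosome. A summit (start plus offset, counted from 1) was given to each gene with the summit 1000 bp upstream to 200 bp downstream of its 5′ end. Summits of different lists were matched when at most 100 bp apart. Replicate counts used the 1840 regions of highest signal in each list. Motifs were searched on both strands in 100 bp around summits. Window assignment was tested on simulated positions.

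The members, the class and partner lists and the rule for named genes were chosen with earlier results of these data known. The rule takes each lin or partner gene with an IDR summit, and the 10 lin genes of highest pooled signal without one. The DREAM subunits, the partners LIN-2, LIN-7 and LIN-10 and the sequence GCGCGC were singled out after values were seen. The partner sur-8 was not matched by name. Alternatives were other windows, transcript starts, region overlap, the 920 IDR regions of highest signal, each replicate alone, the nearest 5′ end at any distance, lin-15A and lin-15B, and other motif and summit limits. Python 3.11.15, numpy 2.4.6, pandas 2.3.3, scipy 1.17.1 and matplotlib 3.10.9 were used.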

Additional observations from a re-analysis of the deposited data

How the results depend on the processing

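Of 20 alternatives to the main counts, 18 gave a value within 1.5 times the reported one. The 12 lin genes with an IDR summit became 9 with windows from 500 bp upstream to 100 bp downstream (lin-13, lin-23 and lin-66 lost), 13 from 2000 bp upstream to 500 bp downstream (lin-37 gained), 9 with the 920 strongest IDR regions and 8 by the nearest 5′ end, which sets no limit on distance and so also drops the window, against 4.77, 8.53, 3.21 and 8.03% of all genes. Leaving out 1 replicate gave 10 to 12 genes in the IDR-sized lists and 27 to 30 in the full lists, against 31 in the pooled list. The 2 larger changes were the pooled count, which was 19 with the shorter window (24.4% of all genes), and the summits with ATCGAT, which were 5 with ATTGAT also counted. Of 64 class counts, 54 stayed within 1.5 times. The classes hold 7 to 16 genes, so 1 gene moves a share by several percentage points, and the unknown depth sets what a list without a region can show.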

Other observations

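The region of highest signal near lin-46, a heterochronic gene whose product resembles the scaffold protein gephyrin, lay beyond its far end. This IDR region had signal 195 at rank 577, with 41.6 in replicate 1 and 149.9 in replicate 2, on chromosome V from 12970717 to 12970845. Its summit lay 1914 bp downstream of the 5′ end and 39 bp past the annotated 3′ end. The neighbouring pair lin-15A and lin-15B, left out of the members by the letter in their names, had no IDR summit in the window. The window of lin-15B, a synthetic multivulva B gene, held a pooled summit of signal 76.9 at rank 2134, next in rank to that of lin-8, with ATCGAT in the 100 bp around it, and the window of lin-15A held none.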
